A study of Mus musculus with 7 samples.

Results

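The step from intermediate progenitor to newborn neuron in the embryonic mouse cortex was followed as the difference between 2 cell clusters deposited by the authors, numbered 4 and 0. Its members were the cells with those numbers in every library that held at least 10 cells of each: 812 cells of label 4 and 1799 of label 0, 2611 of the 10261 cells in all. They came from 10 of 12 libraries and 6 of 7 samples. The smallest libraries inside this limit held 14 cells of label 4 beside 64 of label 0 and 16 beside 95, both from E18.5. The libraries outside it were those of E10.5, with 6 beside 12 cells and 2 beside 3. Dorsal forebrain of CD-1 mouse embryos, an outbred strain, was taken apart with papain and read by Drop-seq, a droplet method in which beads tag every captured mRNA molecule with a cell barcode and with a unique molecular identifier (UMI). The samples were 2 of embryonic day (E) 14.5 and 1 each of the days E12.5, E15.5, E16.5 and E18.5, and the labels name no treatment or mutation for any of them. How many embryos or litters went into a suspension was not given in the sources used here, so p-values measure only how these samples vary among themselves, and that variation may be technical.

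In the embryonic cortex, radial glia at the ventricular surface give rise to intermediate progenitors, which leave the apical surface, divide in the subventricular zone and produce excitatory neurons. Intermediate progenitors are known by the T-box factor Eomes (Tbr2) and the proneural factor Neurog2. Their daughters leave the cell cycle, switch on NeuroD factors, become multipolar and then bipolar, and migrate along radial glial fibres into the cortical plate.

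The deposited numbers carry no names, so both labels were read against marker lists. Label 4 held Eomes at 1561 to 2379 CPM (median 1932) over the 6 samples, where CPM are UMIs of the gene per 1000000 UMIs summed over the cells of a label in a sample. In label 0 it held 292 to 399 CPM (median 354). The 10 intermediate progenitor markers summed to 5176 to 6423 CPM in label 4 and 1033 to 1684 CPM in label 0. Of the 16 projection neuron markers, 14 were tested, and 13 of these were higher in label 0 at an adjusted p under 0.05 by the edgeR test below. This was 92.9%, against 14.5% of all tested genes. The list summed to 1612 to 4514 CPM in label 4 and 7209 to 11705 CPM in label 0. As sums, both sets of markers thus lay on the side that the name of the step gives them. The clusters were drawn from the same counts, so this describes them and is no independent evidence of what they are. Label 4 also held markers of apical progenitors, with a summed level of 3273 to 4929 CPM against 603 to 1136 CPM in label 0.

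The cell cycle went partly against the working name. Genes of G2 and M phase took 0.260 to 0.447% of the UMIs of label 4 and 0.214 to 0.268% of those of label 0. In label 7, the third cluster with Eomes, the same genes took 3.01 to 3.45% in the 4 samples with libraries of at least 10 such cells. S phase genes took 0.166 to 0.638% in label 4, 0.158 to 0.200% in label 0 and 0.986 to 1.44% in label 7. The G2 and M share was lower in label 0 than in label 4 in 6 of 6 samples, by a mean of 0.0969 percentage points (exact sign-flip permutation test, two-sided, p = 0.03125, the smallest that 6 pairs allow, adjusted p = 0.125 over 4 comparisons). The S phase share was lower in 5 of 6 samples (mean difference -0.185 points, p = 0.0625 by the exact sign-flip permutation test, adjusted p = 0.125), with E16.5 as the exception. From label 7 to label 4, the mean difference was -2.90 points for the G2 and M share and -0.742 points for the S share, each lower in 4 of 4 samples, for which the exact permutation test cannot go below p = 0.125. The difference in mitotic transcripts was thus larger between labels 7 and 4 than between labels 4 and 0, and the comparison described here runs from an Eomes-high cluster with few mitotic transcripts to label 0.

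**Figure D1:**
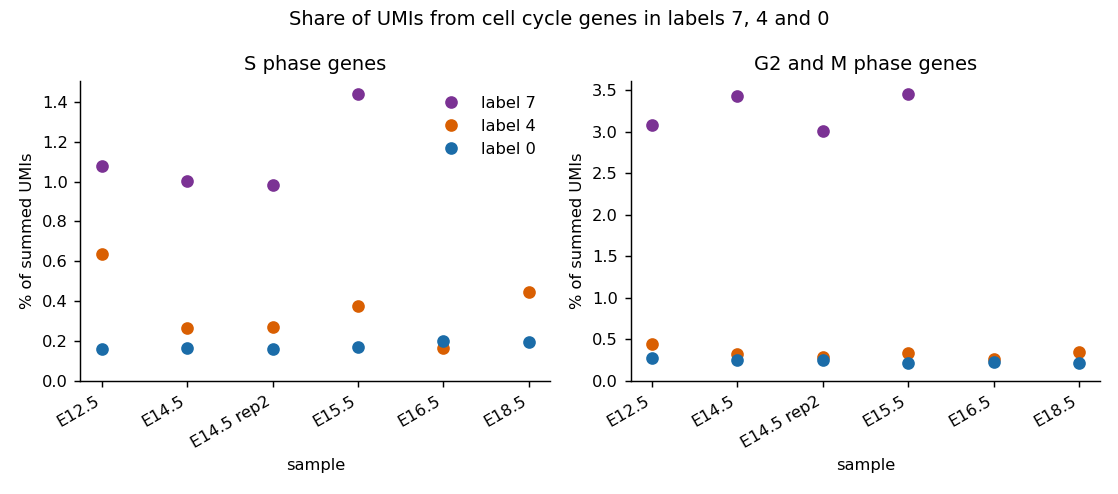
Percentage of all UMIs of a label in a sample (y axes, from 0) that came from S phase genes (left) and G2 and M phase genes (right), for labels 7, 4 and 0 in each sample (x axes). Points are single samples. Label 7 lies above 3% for G2 and M genes, and labels 4 and 0 lie below 0.447%.

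Depth and other cells were compared beside the step. The summed UMIs per sample ranged from 62017 at E18.5 to 643178 in the larger E14.5 sample for label 4, and from 157606 to 1192915 for label 0. The median UMIs per cell were lower in label 0 (mean difference -198.7, 5 of 6 samples, exact sign-flip permutation p = 0.09375, adjusted p = 0.125 over 3 measures). Mitochondrial genes took 4.57% of label 4 UMIs at E12.5, and 2.57% and 3.01% in the larger and smaller E14.5 sample. At E15.5, E16.5 and E18.5 they took 6.79%, 7.09% and 7.55%. In label 0 the shares in the same order were 4.75%, 2.66%, 3.05%, 7.07%, 7.80% and 7.56%. The latest samples thus held the highest shares, and effects of day and of this share cannot be told apart here. No barcode was shared between libraries among these cells. Of the marker lists for other cells, all 10 microglia markers were at 0 in label 4 and 8 of 10 in label 0. Mesenchymal markers summed to at most 32.2 CPM in label 4 and 12.7 CPM in label 0, and interneuron markers to at most 145 and 67.7 CPM. The Cajal-Retzius list of 12 genes summed to 32.2 to 148 CPM in label 4 and 146 to 348 CPM in label 0, and was thus higher in label 0. In label 4, 4 of its genes were at 0 in every sample, and in label 0 only 1, Trp73, which was at 0 in both. The 1 tested member was Nhlh2, which was higher in label 0 and is also a bHLH factor described below. Haemoglobin genes took up to 0.204% of UMIs in label 0, through 3 cells over 2%, and leaving those cells out gave 1596 called genes in place of 1597 (28.1% of those tested).

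A total of 824 genes were higher in label 0 (14.5% of 5680 tested) and 773 were lower (13.6%), at an adjusted p under 0.05 by edgeR's quasi-likelihood test with each sample as a block. The clusters were drawn by the authors from the same counts, so a call says how steadily a difference repeats over 6 samples and is no independent evidence that the clusters differ. Without the larger E14.5 sample, 545 genes were higher and 462 lower. The median log2 difference of all tested genes was -0.02.

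Differences of at least 2-fold in each of the 6 samples (with 5 CPM added to each level) were found for 99 genes higher in label 0 (1.74% of those tested) and 61 lower (1.07%). These are the genes that differed strongly at each stage from E12.5 to E18.5. Levels of the labels did not overlap at all, whatever the sample, for 269 genes higher in label 0 (4.74%) and 194 lower (3.42%).

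The strongest gain was that of Cntn2 (TAG-1, chr1:132509427-132543256 in mm10), an adhesion molecule of early axons. It held 10.7 to 36.8 CPM (median 21.9) in label 4 and 306 to 705 CPM (median 588) in label 0 (log2 difference 4.77, SE 0.186, adjusted p = 3.61e-16). The highest label 4 sample stood far below the lowest label 0 sample. Myt1l, a zinc finger repressor of non-neuronal genes, went from 47.3 to 80.6 CPM (median 57) to 475 to 798 CPM (median 714) (log2 difference 3.54, SE 0.142, adjusted p = 4.54e-16), with a log2 difference of at most 3.74 and at least 3.1 in each sample. Also among the 14 largest gains were Stmn2, a microtubule destabiliser of growth cones (3.71), the secreted guidance cue Sema3c (3.68), the adhesion molecules Chl1 (3.59) and Clmp (3.72), the splicing regulator Rbfox1 (3.57) and the semaphorin receptor subunit Plxna4 (3.43). The others were Hecw1 (3.5), Runx1t1 (3.22), Flrt2 (3.96), the intermediate filament gene Ina (3.17) and the neuronal chromatin subunits Actl6b (3.69) and Dpf1 (3.21). Flrt2 had 4 UMIs in label 4 at E12.5, 3 in the larger E14.5 sample and 0 in the other 4 samples, so the size of its difference rests on few molecules.

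The steepest loss was that of Hes5, an effector of Notch signalling (chr4:154960923-154962371). Label 4 held it at 129 to 1605 CPM (median 627) and label 0 at 0 to 139 CPM (median 14.7) (log2 difference -4.82, SE 0.247, adjusted p = 6.88e-14). Its label 4 level itself ranged widely, being highest in the smaller E14.5 sample and lowest at E18.5, and the highest label 0 sample, also the smaller E14.5 sample, overlapped the lowest label 4 sample. Neurog2, the proneural factor of cortical progenitors (chr3:127633135-127635631), did not overlap: it held 838 to 1348 CPM (median 1073) in label 4 and 49.9 to 114 CPM (median 67.2) in label 0 (log2 difference -3.81, SE 0.12, adjusted p = 5.35e-18). Other large losses were those of the lysophosphatidic acid receptor Lpar1 (-4.32), the unconventional myosin Myo10 (-3.93), the receptor Notch1 (-3.71), the transcription factor Tfap2c (-3.4), Efhd2 (-3.38), Rcn1 (-3.27), Tox3 (-3.25), Gpx8 (-3.24), Sox2 (-3.17), the chromatin remodeller Hells (-3.09), Dbi (-3.06) and the nuclear receptor Nr2e1 (-3.0).

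In the lists below, shares of tested members stand beside 14.5% higher and 13.6% lower among all tested genes. A gene can pass the count filter through the label where it is higher, which can tilt these shares. Of 16 tested intermediate progenitor genes, 14 were lower in label 0 (87.5%) and none higher, with a median log2 difference of -1.69. Eomes (chr9:118478212-118486132) was lower in all 6 samples (log2 difference -2.43, SE 0.102, adjusted p = 1.08e-15), and its levels in the labels did not overlap. Btg2, an antiproliferative gene that marks progenitors committed to neurogenic division, held 242 to 348 CPM (median 335) in label 4 and 30.7 to 95.2 CPM (median 45.1) in label 0 (log2 difference -2.74, SE 0.185, adjusted p = 1.14e-11). Gadd45g, a stress-response and growth-arrest gene, showed a log2 difference of -2.6, and the Hes-related factor Hes6, an inhibitor of Hes1, one of -2.08. Mfng, a modifier of Notch receptors, was lower by a log2 difference of -1.68. Insm1, a zinc finger factor of delaminating progenitors, did not pass (32.2 to 143 CPM (median 89.1) in label 4, 51.1 to 121 CPM (median 73) in label 0, log2 difference -0.19, SE 0.20, adjusted p = 0.536), and neither did the somatostatin receptor Sstr2 (log2 difference -0.27).

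**Figure D2:**
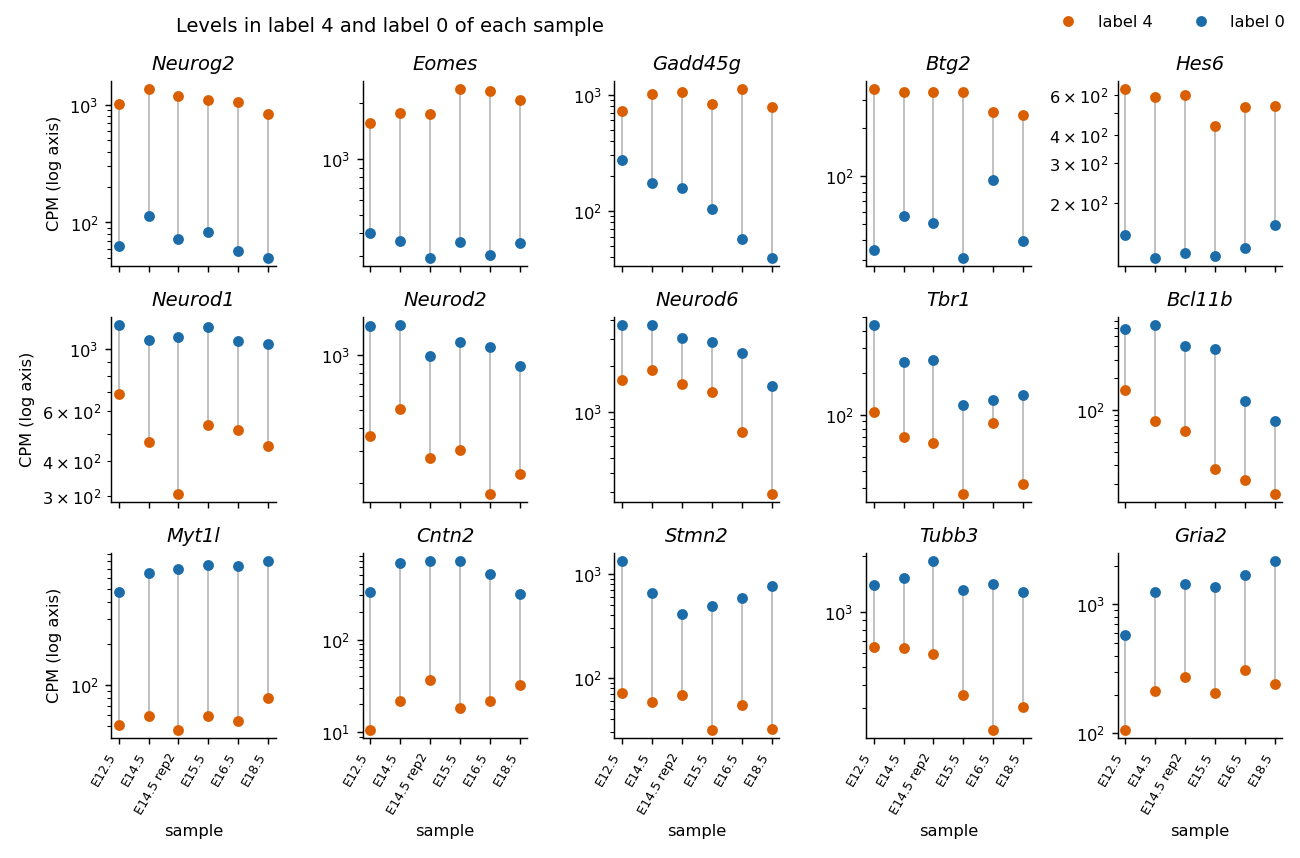
Levels in CPM (y axes, log scale) of 15 genes in label 4 (orange) and label 0 (blue) of each sample (x axes). Points are single samples and grey lines join the labels of 1 sample. Eomes lies between 1561 and 2379 CPM in label 4 and between 292 and 399 CPM in label 0, and Cntn2, Myt1l and Stmn2 lie higher in label 0 in all 6 samples.

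The bHLH factors moved in both directions. Of 16 tested bHLH and Id genes, 7 were higher in label 0 (43.8%) and 6 lower (37.5%). Neurod1, a direct successor of Neurog2 in the neurogenic cascade, was already present in label 4 at 305 to 691 CPM (median 491) and held 1044 to 1215 CPM (median 1092) in label 0 (log2 difference 1.23, SE 0.108, adjusted p = 1.32e-09). Neurod2 (chr11:98325415-98329648), which acts in neuronal maturation, went from 176 to 512 CPM (median 289.7) to 869.5 to 1456 CPM (median 1145) (log2 difference 1.92, SE 0.111, adjusted p = 7.3e-13). Neurod6 held 290.2 to 1881 CPM (median 1441) in label 4 and 1479 to 3710.2 CPM (median 2959) in label 0 (log2 difference 1.27, SE 0.102, adjusted p = 2.92e-10), with its lowest levels in both labels at E18.5. For Neurod1, Neurod2 and Neurod6 the levels were thus 2.34, 3.78 and 2.42-fold higher. Bhlhe22, a factor of cortical projection neurons, held 0 to 41.1 CPM (median 32.5) in label 4 and 249 to 408 CPM (median 284) in label 0 (3.12 on the log2 scale). Nhlh1, a transient factor of newborn neurons, was higher by 0.49 (adjusted p = 0.0119), but it lost the call without E12.5 or without the smaller E14.5 sample. Its relative Nhlh2 was higher by 1.57, and the differentiation inhibitors moved apart: Id2 was higher (1.27) and Id4 lower (-2.36).

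Promoters of 2 genes that were higher in label 0 are shown because they hold the E-box CAGATG, a hexamer that proneural and NeuroD factors bind. They are the 250 bases before the start that RefSeq gives, which can differ from that of the GENCODE positions above, on GRCm38.p6, the assembly of mm10, written 5′ to 3′ on the strand of the gene with the hexamer in capitals.
Neurod2 (chr11:98329646-98329895, minus strand): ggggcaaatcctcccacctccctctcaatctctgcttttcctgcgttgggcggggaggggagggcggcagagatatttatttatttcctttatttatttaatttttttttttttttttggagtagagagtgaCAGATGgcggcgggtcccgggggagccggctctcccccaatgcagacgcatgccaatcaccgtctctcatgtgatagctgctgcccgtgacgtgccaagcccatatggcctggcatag
Nhlh1 (chr1:172057597-172057846, minus strand): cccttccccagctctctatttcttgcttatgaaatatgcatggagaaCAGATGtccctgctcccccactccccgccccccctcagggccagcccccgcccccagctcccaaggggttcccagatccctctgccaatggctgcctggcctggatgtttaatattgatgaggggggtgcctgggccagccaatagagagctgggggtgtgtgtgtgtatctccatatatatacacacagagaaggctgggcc
The hexamer begins 118 bases before the RefSeq start of Neurod2 and 203 before that of Nhlh1. It was read on both strands and overlaps neither of the other motifs searched, CAGCTG and the T-box core GGTGTGA. It occurred in 54 of 593 promoters of genes higher in label 0 (9.11%), in 8.75% of those lower and in 8.79% of the promoters of all tested genes, so its share among the called genes was near that of the tested genes. CAGCTG, the other E-box, occurred in 14% of promoters of higher genes, 10.3% of lower genes and 9.90% of all tested genes. GGTGTGA occurred in 1.85%, 2.06% and 2.40%. Over all 27025 promoters of the table the shares were 14.5%, 12.7% and 3.31%. The promoters of 2 lower genes are shown for CAGCTG.
Gadd45g (chr13:51846425-51846674, plus strand): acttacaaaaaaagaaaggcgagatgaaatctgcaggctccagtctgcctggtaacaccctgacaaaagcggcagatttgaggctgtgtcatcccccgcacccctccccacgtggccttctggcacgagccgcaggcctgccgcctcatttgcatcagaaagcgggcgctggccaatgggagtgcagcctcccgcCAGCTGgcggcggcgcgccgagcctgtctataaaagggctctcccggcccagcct
Hes6 (chr1:91414039-91414288, minus strand): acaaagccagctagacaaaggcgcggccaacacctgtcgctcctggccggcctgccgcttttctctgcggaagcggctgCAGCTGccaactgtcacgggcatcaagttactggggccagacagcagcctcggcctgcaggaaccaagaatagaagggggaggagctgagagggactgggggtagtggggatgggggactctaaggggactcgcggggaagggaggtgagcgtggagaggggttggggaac
In both, the hexamer in capitals reads the same on either strand, and it begins 55 bases before the start of Gadd45g and 171 before that of Hes6. A match of letters describes the sequence and is not a measured binding site.

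Among 41 tested neuronal transcription factors, 22 were higher in label 0 (53.7%) and 5 lower (12.2%, near the 13.6% of all tested genes). Bcl11b (Ctip2), known for subcerebral projection neurons, held 16.1 to 155 CPM (median 45.3) in label 4 and 78.4 to 635 CPM (median 391) in label 0 (log2 difference 2.67, SE 0.183, adjusted p = 1.55e-11), and its level was lowest at E18.5 in both labels. Tbr1, a T-box factor of early-born neurons, held 27.4 to 104 CPM (median 66.5) in label 4 and 118 to 437 CPM (median 189) in label 0 (log2 difference 1.88, SE 0.174, adjusted p = 3.75e-09). Smaller gains were those of Sox5 (1.17) and Sox11 (1.29). Prdm8 (2.76) and Lmo4 (2.7) were higher as well. The 5 lower factors were Chd7 (-2.06), Emx2 (-0.97), Myt1 (-0.89), Emx1 (-0.87) and Zbtb20 (-0.34). Myt1 and Myt1l, which are paralogs, thus moved in opposite directions. Sox4, at 1741 to 2805 CPM (median 2402) in label 4 and 1961 to 2806 CPM (median 2504) in label 0, did not pass (log2 difference 0.11, SE 0.0722, adjusted p = 0.309), and Pou3f2 did not pass over all stages (log2 difference 0.2, SE 0.189, adjusted p = 0.484).

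**Figure D3:**
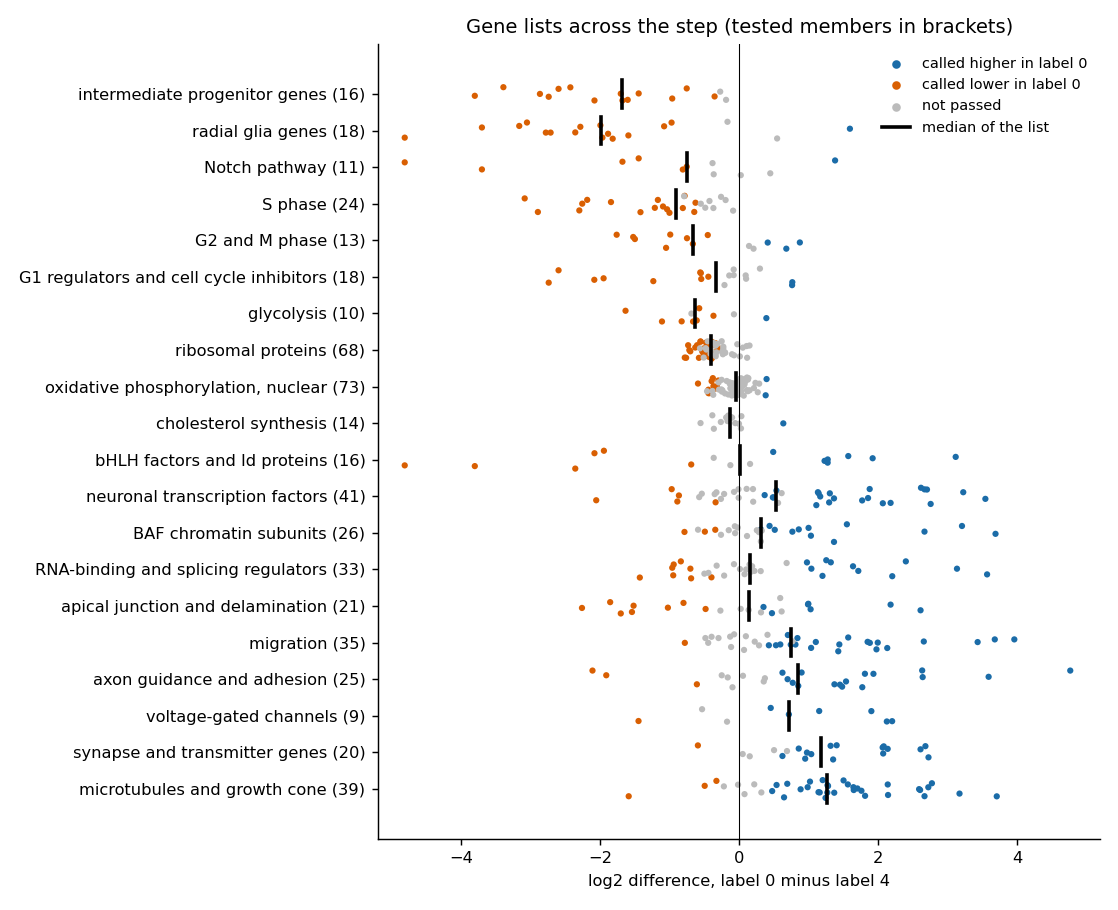
Log2 difference of label 0 minus label 4 (x axis) for the tested members of 20 gene lists (y axis, number of tested members in brackets). Each point is 1 gene, coloured by its call, and black bars are list medians. The medians run from -1.98 for radial glia genes to 1.27 for microtubule and growth cone genes.

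Most tested radial glia genes were lower in label 0. Of 18 tested members, 15 were lower (83.3%), with a median log2 difference of -1.98. Only 1 was higher (5.56%), Lix1, by 1.59 on the log2 scale. Ptn and Ptprz1 did not pass, and Ptn held 215 to 527 CPM (median 412) in label 4 and 117 to 685 CPM (median 339) in label 0. Pax6, a homeobox factor of cortical progenitors, held 165 to 263 CPM (median 213) in label 4 and 29.4 to 78.4 CPM (median 59.6) in label 0 (log2 difference -2.0, SE 0.173, adjusted p = 1.12e-09). Sox2, a factor of neural stem cells, went from 116 to 451 CPM (median 294) to 18.1 to 64.1 CPM (median 27.4) (adjusted p = 3.29e-12), with no overlap between the labels. Of 11 tested Notch pathway genes, 6 were lower (54.5%) and 1 was higher (9.09%, against 14.5% of all tested genes). The receptor Notch1 was present in label 4 at 86.7 to 113 CPM (median 105) and in label 0 at 5.43 to 10.2 CPM (median 6.74). The ligand Dll1 was lower (-1.45), as was Dll3 (-0.76), while the higher member was Dner (1.38), a Notch ligand-like protein of neurons, whose call was lost without the larger E14.5 sample (adjusted p = 0.00349 over all 6).

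Most tested cell cycle genes were lower in label 0. Of 45 S phase genes in the matrix, 24 were tested. Of these, 16 were lower (66.7%) and none higher, with a median of -0.91. The helicase subunits Mcm2 (-2.3) and Mcm4 (-2.26), the ubiquitin ligase subunit Dtl (-2.9) and Pcna, the sliding clamp of replication (-1.17), were among them. Pcna at E16.5 went the other way, with 22 CPM in label 4 and 82.5 CPM in label 0. Of 59 G2 and M phase genes in the matrix, only 13 were tested. Most of the list, with Cdk1, Ccnb1, Plk1 and Top2a among them, fell under the count filter. Of the 13 tested, 8 were lower (61.5%) and 3 higher (23.1%). Mki67, a marker of cycling cells, held 31.6 to 80.6 CPM (median 56.9) in label 4 and 10.7 to 27.8 CPM (median 16) in label 0 (log2 difference -1.5, SE 0.30, adjusted p = 0.000372), against 1160.3 to 2784 CPM in label 7. The 3 higher members, Tubb4b (0.87), Rangap1 (0.68) and Ckap5 (0.41), encode tubulin and proteins of microtubules and nuclear transport that neurons also use. Each lost its call in at least 1 of the fits without 1 sample, and each was lower in label 0 when label 7 was added to label 4.

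Of 18 tested genes that govern G1 and cell cycle exit, 9 were lower and 2 higher (11.1%, against 14.5% of all tested genes). Ccnd2, the cyclin of cortical intermediate progenitors, held 526 to 1133 CPM (median 811) in label 4 and 125 to 228 CPM (median 190.5) in label 0 (log2 difference -2.09, SE 0.144, adjusted p = 1.76e-11). Its partner Cdk4 was lower by -0.45 on the log2 scale (adjusted p = 0.000103). Of the cyclin-dependent kinase inhibitors, Cdkn1b (p27) did not pass, with 428 to 621 CPM (median 526) in label 4 and 394 to 661 CPM (median 627) in label 0 (log2 difference 0.1, SE 0.102, adjusted p = 0.531). Cdkn1c (p57) did not pass either (log2 difference -0.14, SE 0.155, adjusted p = 0.543). Both were thus already present in label 4, in which mitotic genes were low. Cdkn2d (p19Ink4d) was higher by 0.76 (adjusted p = 0.0342), a call that was lost without E15.5, without E16.5 or without the larger E14.5 sample. The other higher member, the Myc-family factor Mycn (0.76, adjusted p = 0.00723), lost its call when either E14.5 sample was left out. Ccnd1, Cdk6 and Cdkn1a, as well as Top2a and Cxcr4 of other lists, fell under the count filter and were not tested. Ccnd1 was listed at 16.1 to 281 CPM (median 69.8) in label 4 and 0 to 24.3 CPM (median 6.65) in label 0, and its highest level was that of label 4 at E12.5.

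Genes of apical attachment and of leaving the surface moved in both directions. Of 21 tested, 7 were higher in label 0 (33.3%) and 8 lower (38.1%). The lower ones included Magi1 (-2.26), the apical membrane protein Prom1 (-1.86), the planar polarity cadherin Celsr1 (-1.71) and the tight junction scaffold Tjp1 (-1.55). Ctnna2, the neuronal alpha catenin, was higher, with 11 to 40.4 CPM (median 19.7) in label 4 and 116 to 222 CPM (median 192) in label 0 (log2 difference 2.61, SE 0.217, adjusted p = 5.5e-10), while its relative Ctnna1 was lower (-1.52). Scrt1, a Snail-family repressor known in delaminating neurons, was higher (2.18).

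Migration genes were higher in label 0 in 21 of 35 tested members, and 1 was lower, the reelin receptor Lrp8 (-0.78). Unc5d, a netrin and FLRT receptor known for multipolar cells of the subventricular zone, held 21 to 132 CPM (median 75.1) in label 4 and 65.1 to 367 CPM (median 223) in label 0 (log2 difference 1.88, SE 0.20, adjusted p = 4.08e-08). Sema3c held 9.13 to 32.2 CPM (median 16.7) in label 4, and in label 0 it was 163 CPM at E12.5, 143 CPM in the larger and 169 CPM in the smaller E14.5 sample, and then 233, 317 and 819.7 CPM at E15.5, E16.5 and E18.5. The label 0 level was highest at E18.5, and it lay above every label 4 level in each sample. Dcx, a microtubule protein of migrating neurons, went from 242 to 516 CPM (median 379) to 697 to 962 CPM (median 782) (log2 difference 1.1, SE 0.107, adjusted p = 7.73e-09). Rnd2, a small GTPase that Neurog2 activates in migrating neurons, was higher by 0.74 (adjusted p = 0.000498), although at E16.5 and E18.5 label 0 lay slightly below label 4 (139.6 against 143 CPM and 143 against 161 CPM).

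Genes of the neurite cytoskeleton were mostly higher in label 0. Of 39 tested microtubule and growth cone genes, 31 were higher (79.5%) and 3 lower (7.69%), and the median log2 difference was 1.27. Stmn2 (chr3:8509360-8561606) held 32 to 72.3 CPM (median 57) in label 4 and 410.2 to 1336 CPM (median 623) in label 0. Tubb3, the neuronal beta tubulin, went from 231 to 643 CPM (median 473) to 1287 to 1889 CPM (median 1411) (log2 difference 1.64, SE 0.123, adjusted p = 8.37e-11). Gap43, a growth cone protein, showed 2.67 and Mapt (tau) 2.14. Ank3, which organises the axon initial segment, showed 2.72, and the cannabinoid receptor Cnr1 2.77. The 3 lower members were Dpysl4 (-1.59), Marcks (-0.5) and Kif21a (-0.33), the last of which lost its call without the larger E14.5 sample. Near-identical tubulin genes such as Tuba1a and Tuba1b share reads, and how the authors' counting split them is not given in the sources used here.

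Axon guidance and adhesion genes were higher in 16 of 25 tested members and lower in 3. Besides Cntn2 and Chl1, the higher ones included Negr1 (2.64) and Cntnap2 (2.63). The lower ones were the class 5 semaphorins Sema5a (-2.11) and Sema5b (-1.92), and the ephrin Efnb1 (-0.61), whose call was lost without the larger E14.5 sample.

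Most genes of synapses and channels had too few UMIs to be tested. Those tested can have passed the filter through the label where they were higher, so the shares below can be tilted. Of 51 synapse and transmitter genes in the matrix, 20 were tested. Of these, 15 were higher in label 0 (75.0%) and 1 lower (5.0%), Cplx2, by -0.6 on the log2 scale. Gria2, an AMPA receptor subunit, held 107 to 308 CPM (median 228) in label 4 and 574 to 2170.3 CPM (median 1404) in label 0 (log2 difference 2.61, SE 0.105, adjusted p = 4.74e-16). Its label 0 level was lowest at E12.5 and highest at E18.5. The vesicle GTPase Rab3a (2.14) was higher as well. Of 40 voltage-gated channel genes in the matrix, 9 were tested and 6 were higher (66.7%). Among them were Scn3a, the sodium channel of embryonic neurons (2.12), and Kcnq3 (2.2). Cacna1a was the 1 lower member (log2 difference -1.45), a share of 11.1% against 13.6% of all tested genes.

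Of 33 tested RNA-binding and splicing regulators, 11 were higher in label 0 (33.3%) and 8 lower (24.2%). Rbfox1 (3.57), Khdrbs2 (3.13), Celf5 (2.4) and Celf4 (2.2) were higher, and Ptbp1, the repressor of neuronal exons, was lower (-1.43). The neuronal Elav genes differed in direction: Elavl3 was higher (1.25), while Elavl2, at 677 to 1126 CPM (median 946) in label 4 and 388 to 561 CPM (median 432) in label 0, and Elavl4 were lower (-0.97 and -0.95). Of 26 tested subunits of the BAF chromatin remodelling complex, 12 were higher (46.2%) and 3 lower (11.5%, near the 13.6% of all tested genes). The textbook exchange of this complex at neuronal differentiation replaces Actl6a by Actl6b, the Dpf2 and Phf10 subunits by Dpf1 and Dpf3, and Ss18 by Ss18l1. Here Actl6b went from 0 to 16.1 CPM (median 6.3) to 74 to 114 CPM (median 92.8), and Actl6a was lower (-0.5, adjusted p = 0.0142). Dpf1 was higher (3.21), and Ss18l1 was higher (1.03) while Ss18 was lower (-0.79, adjusted p = 0.0488). Phf10 and Dpf2 did not pass (0.11 and -0.59). The calls for the 3 lower subunits were not firm. Actl6a lost its call without the larger E14.5 sample, and Ss18 in 4 of the 5 fits without 1 sample that tested it. Pbrm1, the third, lost its call without the larger E14.5 sample, without E16.5 or without E18.5.

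Of 10 tested glycolysis genes, 7 were lower and 1 was higher, with a median log2 difference of -0.64. Ldha, which makes lactate, held 195 to 306 CPM (median 257) in label 4 and 57.1 to 90.4 CPM (median 75.6) in label 0 (log2 difference -1.64, SE 0.153, adjusted p = 4.32e-09), while Ldhb was higher (0.39, adjusted p = 0.0161), a call lost without E15.5 or the larger E14.5 sample. Of 68 tested ribosomal protein genes, 39 were lower (57.4%) and none higher, with a median of -0.40. Of 73 tested nuclear genes of oxidative phosphorylation, 10 were lower (13.7%, near the 13.6% of all tested genes) and 2 higher (2.74%). Their median was -0.04, near that of all genes. In cholesterol synthesis, 1 of 14 was higher (7.14%, against 14.5% of all tested genes). This was Fdft1 (log2 difference 0.63), and its call was lost without E15.5 or either E14.5 sample. Of 12 tested immediate early and stress genes, 4 were higher (33.3%) and 2 lower (16.7%).

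To describe the share of cells with a transcript, cells were thinned to 1000 UMIs each. This left out 189 of 812 cells of label 4 and 416 of 1799 of label 0. At this depth the share largely follows the mean level. It therefore cannot tell a change in the share of expressing cells from a change in level per cell. A UMI of Eomes was found in 72 to 86.4% (median 81.6%) of label 4 cells over the 6 samples and in 16.6 to 25.1% (median 20.04%) of label 0 cells. In label 8, whose interneuron markers summed to 5129 to 7212 CPM over the 6 samples, Eomes was found in 0 to 4.92% (median 0.556%) of cells. Median depth before thinning was 1479 UMIs in label 8 and 1543 in label 0. The source of the Eomes UMIs in label 0 was not tested. Without thinning, the shares over all cells were 85.8% in label 4, 24.9% in label 0 and 2.21% in label 8. Neurog2 was found in 48 to 66.7% (median 62.1%) of label 4 cells and 0 to 9.81% (median 5.11%) of label 0 cells. Neurod1 went from 12 to 38.5% (median 28.3%) to 42.3 to 62.6% (median 49.1%), and Neurod2 from 12 to 37.5% (median 24.4%) to 54.1 to 73.3% (median 61.8%). Both Eomes and Neurod1 were found in 26.2% of label 4 cells and 15.04% of label 0 cells over all samples, so the 2 transcripts met in cells on either side of the boundary. Mki67 was found in 1.64 to 8.0% (median 3.91%) of label 4 cells, 0.556 to 3.79% (median 1.71%) of label 0 cells and 59.1 to 85.7% (median 70.00%) of label 7 cells. For label 7 these were 5 samples. They included E18.5, with 14 thinned cells from libraries of 8 each, so the limit of 10 cells in a library was not applied here.

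Levels in labels 7 and 2 were set beside the step in the 4 samples in which all 4 labels had at least 10 cells in a library. Of these labels, label 2 held the highest levels of the neuronal genes Mapt and Stmn2. Of 769 called higher genes with at least 50 CPM in a label, 469 (61.0%) had their highest mean level in label 2 and 271 (35.2%) in label 0. Of 729 called lower genes, 521 (71.5%) were highest in label 4 and 200 (27.4%) in label 7. Both sets were chosen by label 0 against label 4. A higher gene could thus hardly be highest in label 4, nor a lower gene in label 0. The same shares over all tested genes were not taken, so these counts do not place the step in an order. Highest in label 0 were Neurod1 (121 to 705 CPM in label 7, 305 to 691 CPM in label 4, 1079 to 1215 CPM in label 0 and 113 to 294 CPM in label 2), Unc5d (65.1 to 367 CPM in label 0 and 15.5 to 54.1 CPM in label 2), Sema3c (143 to 233 CPM and 35.9 to 48.3 CPM) and Nrp1 (392 to 863 CPM and 32.3 to 459 CPM). For Neurod1, Unc5d and Sema3c these ranges do not overlap between labels 0 and 2. Stmn2 went on from 410.2 to 1336 CPM in label 0 to 1394 to 3818 CPM in label 2, and Mapt from 106 to 159.9 CPM to 603 to 1154 CPM. Gadd45g at E12.5 was higher in label 7 than in label 4, and in the other 3 samples the order was reversed.

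**Figure D4:**
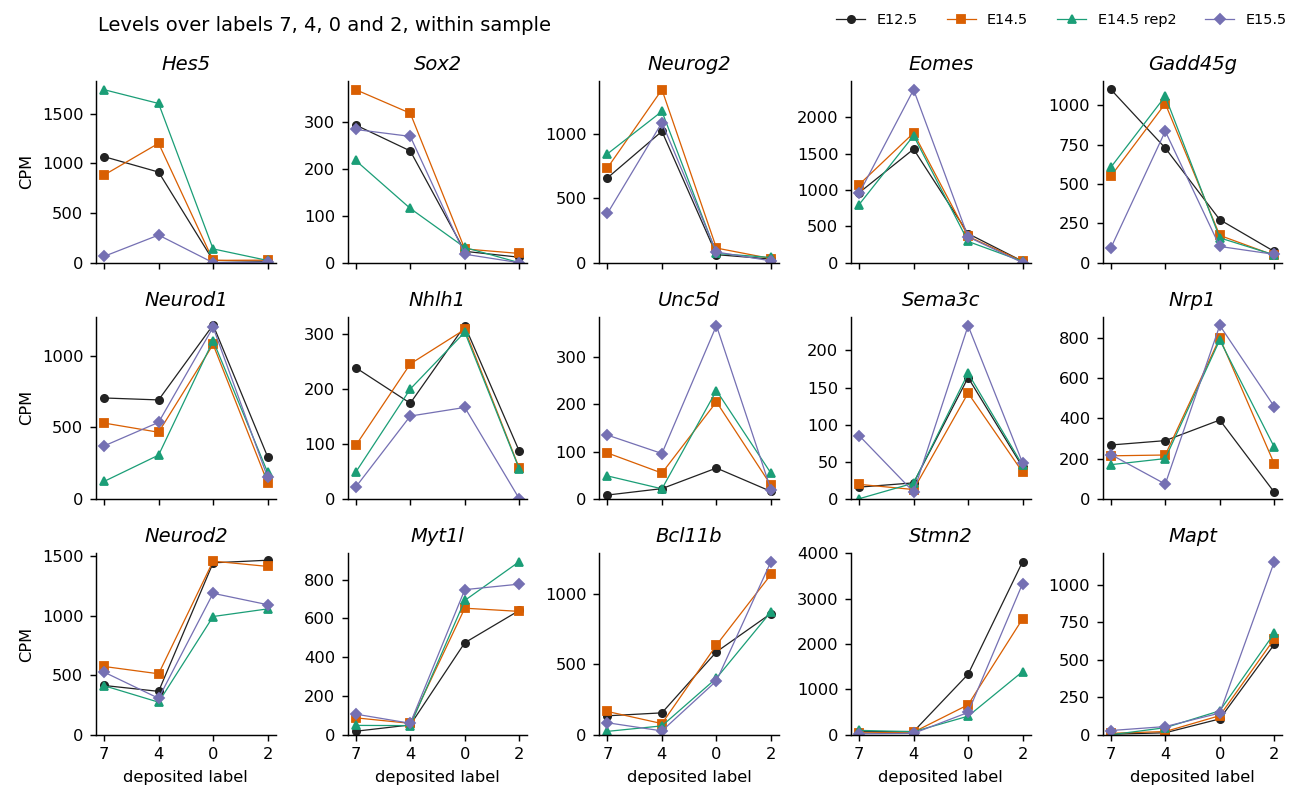
Levels in CPM (y axes, from 0) of 15 genes over labels 7, 4, 0 and 2 (x axes) in the 4 samples with all labels. Lines join the values of 1 sample. Neurod1, Unc5d, Sema3c and Nrp1 are highest in label 0, and Stmn2 and Mapt are highest in label 2.

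Whether the step itself changed between E12.5 and E18.5 was tested as the interaction of label and embryonic day, which the choice of cells did not use. The difference of label 0 minus label 4 rose with day for 12 genes (0.211% of those tested) and fell for 9 (0.158%), and 510 genes had an unadjusted p under 0.05. These calls lean on the ends of the series: without E12.5, 3 genes rose and 6 fell, and without E18.5, 32 rose. Of the 21 genes (0.37% of those tested), 5 kept their call without E12.5 (Nrp1, Gadd45g, Pam, Pcp4 and Fos), and 3 kept it whichever sample was left out (Nrp1, Gadd45g and Pam).

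Nrp1, a receptor subunit for class 3 semaphorins, changed most firmly (0.80 per day, SE 0.0959, adjusted p = 5.66e-06 on the log2 scale). Its label 4 level was 289 CPM at E12.5, 218 CPM in the larger and 199.9 CPM in the smaller E14.5 sample, and then 73, 121 and 16.1 CPM at E15.5, E16.5 and E18.5, the last being 1 UMI. In label 0 it was 392 CPM at E12.5, 799.7 CPM in the larger and 790.3 CPM in the smaller E14.5 sample, and then 863, 939 and 570.2 CPM at E15.5, E16.5 and E18.5. Label 4 thus held less Nrp1 at E18.5 than at E12.5, while label 0 lay at or above its E12.5 level in every sample. Gadd45g moved the other way (-0.54 per day, SE 0.0701, adjusted p = 1.42e-05). It was 728 CPM at E12.5, 1011 CPM in the larger and 1057 CPM in the smaller E14.5 sample, and then 835, 1109 and 790.1 CPM at E15.5, E16.5 and E18.5 in label 4, and 273 CPM at E12.5, 174 CPM in the larger and 158 CPM in the smaller E14.5 sample, and then 103, 57.1 and 39.2 CPM at E15.5, E16.5 and E18.5 in label 0. Pam, which amidates neuropeptides, also fell (-0.39 per day, SE 0.0655, adjusted p = 0.00154), and here label 4 changed, from 214 CPM at E12.5 to 1096 CPM at E18.5, while label 0 stayed at 273 to 399 CPM (median 335).

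Among the other named genes with a rising difference, the POU factors Pou3f2 (0.42 per day, SE 0.0785, adjusted p = 0.0041) and Pou3f3 (0.30 per day), known for upper layer neurons, changed sign along the series. Pou3f2 in label 0 was 66.4 CPM at E12.5, 174 CPM in the larger and 271 CPM in the smaller E14.5 sample, and then 606, 799 and 837 CPM at E15.5, E16.5 and E18.5, and in label 4 it ranged from 134 to 419 CPM (median 319). It lay lower in label 0 than in label 4 at E12.5 and in both E14.5 samples and higher from E15.5 on. Meis2 (0.21 per day) was 557 and 553 CPM in labels 4 and 0 at E12.5 and 790.1 and 1932 CPM at E18.5. The secreted factor Ptn (0.42 per day) was 469 CPM in label 4 and 117 CPM in label 0 at E12.5, and 484 and 656 CPM at E18.5. The calls for Pou3f2, Pou3f3, Meis2 and Ptn were lost without E12.5, and that for Meis2 also without E16.5 or without E18.5. Rai14 (0.50 per day), Ppp2r2b (0.32) and Tsc22d1 (0.29) completed the named rising genes and also lost their calls without E12.5. Rai14 lost it without E18.5 as well. Without E16.5 the calls for Ppp2r2b and Tsc22d1 were lost too, as they were without the smaller E14.5 sample for Ppp2r2b and the larger for Tsc22d1.

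With a falling difference, Pcp4, a calmodulin-binding protein, was 42.8 CPM in label 4 at E12.5 and 403 CPM at E18.5, with 361 to 866 CPM (median 570.3) in label 0 (-0.53 per day, SE 0.0932, adjusted p = 0.00229). Its call was lost without E18.5. Vim, the intermediate filament of radial glia (-0.39 per day), was 431 CPM in label 0 at E12.5 and 110.5 CPM at E18.5, with 499.9 to 1131 CPM (median 889) in label 4. Nfia (-0.25 per day), a factor of later progenitors, was 348 CPM in label 4 at E12.5 and 726 CPM at E18.5, with 634 to 1022 CPM (median 786) in label 0. The Wnt inhibitor Nkd1 (-1.10 per day) held 116 CPM in label 0 at E12.5 and 3.56 CPM at E18.5. The calls for Vim, Nfia and Nkd1 were lost without E12.5, and that for Nfia also without E16.5. Fos (-0.55 per day), an immediate early gene that dissociation can induce, had 0 UMIs in label 4 at E12.5 and 597 CPM at E18.5, and in label 0 2.55 CPM and 435 CPM. This call was lost when E18.5 or either E14.5 sample was left out. Sez6 (-0.61 per day) was 10.7 CPM in label 4 at E12.5 and 193 CPM at E18.5, and its call was lost when E12.5 or E18.5 was left out.

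**Figure D5:**
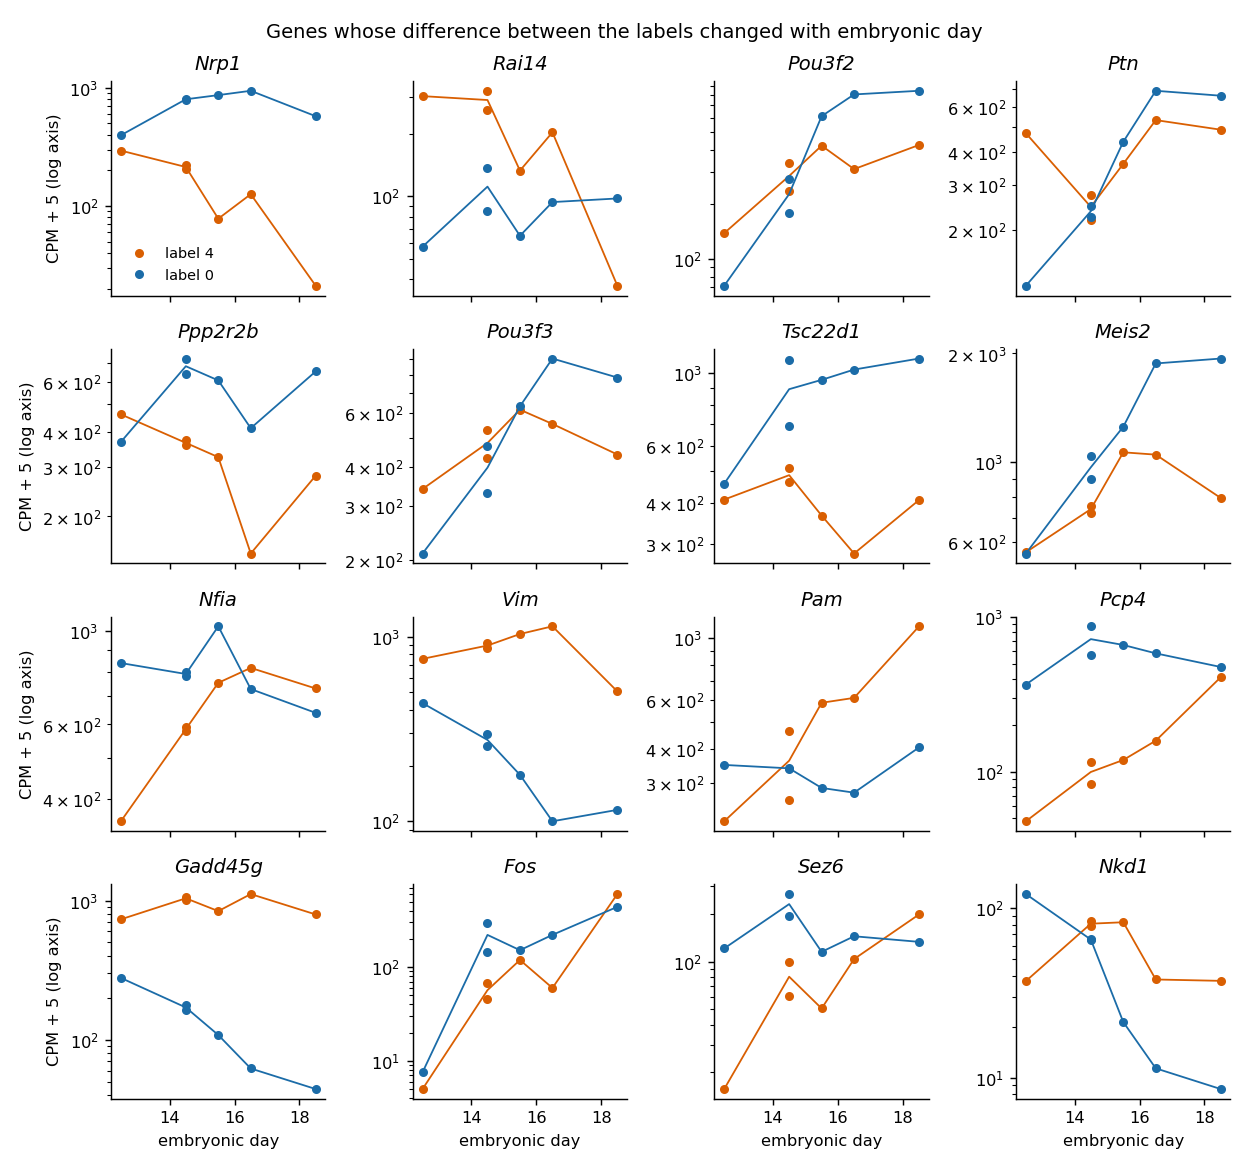
Levels plus 5 CPM (y axes, log scale) against embryonic day (x axes) in label 4 (orange) and label 0 (blue) for the 16 named genes whose difference changed with day. Points are single samples and lines join the mean of each day. Nrp1 separates towards E18.5 as its label 4 level falls to 1 UMI, and Pou3f2 crosses between E14.5 and E15.5.

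The balance of the 2 labels was 67.1% label 0 at E12.5 (exact Clopper-Pearson 95% interval 63.5 to 70.5%), 66.2% (63.3 to 68.9%) in the larger and 68.8% (61.9 to 75.2%) in the smaller E14.5 sample, 73.5% (67.95 to 78.5%) at E15.5, 71.3% (61.02 to 80.1%) at E16.5 and 84.1% (78.1 to 89.03%) at E18.5. The intervals cover counting error only. The share rose with day over the 6 samples (Pearson's r = 0.879, exact permutation p = 0.0278, Spearman's rho = 0.841, exact permutation p = 0.0444, both 0.0444 adjusted over the 2 measures). It was highest at E18.5, and leaving out E18.5 and E12.5, which lie farthest from the median of day, r was 0.685 over 4 samples. With cells of at least 1000 UMIs only, r was 0.818 and the adjusted p was 0.133, which did not pass.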

How the data were processed

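The authors deposited 1 matrix of counts (whole numbers of UMIs for 21862 genes in 10261 cells) with a cluster number for each cell. Per the submitters' processing notes and the labels' protocols, Drop-seq tools 3.1, the mm10 genome and Seurat 3.1.5 were used. The sources used here do not give the counted strand or the settings of the clustering. The matrix holds no cell under 501 genes and none over 9.996% mitochondrial UMIs, as its values show.

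UMIs of labels 0 and 4 were summed per sample over libraries with at least 10 cells of each. Library names gave the sample. The exact name of 1 library of the larger E14.5 sample is in no label, and it was assigned by inference. That name, E14_2.1, differs only in its last digit from E14_2.2 of the smaller E14.5 sample. Whether the E14.5 samples are separate preparations is not given in the sources used here. The sums were tested in R 4.3.3 with edgeR 4.0.16 (genes kept by filterByExpr, TMM factors of 0.924 to 1.09, glmQLFit and glmQLFTest, two-sided). Sample was a block, since both labels of a sample come from the same libraries. Benjamini-Hochberg adjustment was over 5680 genes with 0.05 as the threshold. The interaction with day was fitted in the same way. Gene positions come from the GENCODE annotation of mm10. Doublets were marked with Scrublet (89 cells, 0.867%, of which 14 in labels 0 and 4) and kept except in an alternative. Counts were simulated with a single dispersion for all genes and the same mean levels in every sample. Changes were placed only in genes above a minimum level. There the step test called 100% of changes of 2 and -2 (log2), 92.2% of changes of 1 and 93.2% of changes of -1. It called 0.171% of unchanged genes (5452 genes). The day test called 84.4% and 84.8% of slopes of -0.6 and 0.6 and 7.0% and 21.1% of slopes of -0.3 and 0.3 (5443 genes). These rates hold for that setting, and the real samples, which differ in stage, can give other rates. The members, the 19 gene lists, the 10 marker lists and the tests were chosen with earlier results of these data known. Of 681 list genes, 676 were in the matrix and 382 were tested, so counts over lists leave out members with few UMIs. The filter can be met by the sums of the higher label alone. Shares higher or lower among tested members can therefore be tilted by it.

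Named genes were the 14 highest and 14 lowest called differences with at least 50 CPM in the higher label and 1 direction in every sample, up to 4 called members per direction of each list, 41 genes given in any case, and the 8 steepest called changes with day per direction. Mitochondrial, ribosomal, haemoglobin, sex-linked and unnamed genes were left out of the ranked parts, and some genes that the rule names are not reported here. Zbtb20, Sstr2, Dll3, Ctnna1, Elavl3, Ss18l1, Phf10 and Dpf2 were named after their values were seen. Alternatives were DESeq2 1.42.0, size factors in place of TMM, no count filter, no replicate block, thinned sums, libraries as pairs, stricter cell and library limits, doublets left out, the E14.5 samples added up, label 7 added to label 4 and each sample left out in turn. Leaving out cells over 2% haemoglobin was chosen after seeing the data.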

Additional observations from a re-analysis of the deposited data

Results flagged for a closer look

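In 2 of 41 values checked for a sample far from the other 5, E16.5 stood apart: the log2 difference of label 0 minus label 4 (with 5 CPM added) was 0.51 for Tbr1 and 1.16 for Gap43, both lower than in the other samples. Chance gives about 1 such sample in 20 checked values. Label 4 of E16.5 held 27 cells, and its 87.9 CPM of Tbr1 and 154 CPM of Gap43 were high among the label 4 samples.

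For 21 genes the difference between the labels changed with embryonic day by the interaction test of edgeR. The change of the log2 difference per day was 0.85 for Hs6st2, 0.80 for Nrp1, 0.65 for Pak3, 0.50 for Rai14, 0.42 for Pou3f2, 0.42 for Ptn, 0.32 for Ppp2r2b, 0.30 for Pou3f3, 0.29 for Tsc22d1, 0.29 for Hmgn5, 0.22 for 2610017I09Rik and 0.21 for Meis2. It was -1.10 for Nkd1, -0.61 for Sez6, -0.55 for Fos, -0.54 for Gadd45g, -0.53 for Pcp4, -0.39 for Pam, -0.39 for Vim, -0.25 for Nfia and -0.23 for Chd3. Hs6st2, Pak3 and Hmgn5 lie on the X chromosome, and these 3, 2610017I09Rik and Chd3 fell outside the rule for naming genes and were added after their values were seen. Pak3, a kinase of the actin cytoskeleton, held 442 CPM in label 4 at E12.5 and 16.1 CPM, or 1 UMI, at E18.5, against 92.7 to 142 CPM (median 118) in label 0. Hs6st2, which sulphates heparan chains, held 91.9 CPM in label 0 at E12.5 and 378 CPM at E18.5, against 9.13 to 48.2 CPM (median 23.7) in label 4.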

How the results depend on the processing

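E18.5, with 62017 UMIs in label 4, sets the depth limit: 1 UMI there is 16.1 CPM. Without the replicate block, which pairs the labels of 1 sample, 561 genes were higher and 431 lower. Of the named genes, Actl6a, Cdh10, Ckap5, Dner, Fdft1, Fos, Gpi1, Hsph1 and Kif21a then lost the call of the step. Klf6, Ldhb, Marcks, Mycn, Nhlh1, Pbrm1, Rangap1, Rnd2 and Ss18 lost it too. With no low count filter, 1271 were higher, and leaving out 1 sample gave 545 to 853 higher and 462 to 798 lower, the lowest without the larger E14.5 sample. DESeq2 called 628 higher and 529 lower, and with it Cdkn2d, Dner, Gpi1, Hsph1, Klf6, Mycn, Nhlh1, Pbrm1, Rangap1, Ss18 and Tubb4b lost the call. Genes whose difference rose with day numbered 24 with libraries as pairs, 5 by DESeq2, 23 with no filter, 32 with at least 20 cells a side (which drops E18.5), 7 with cells of at most 5% mitochondrial UMIs (which leaves 3 samples) and 3 to 32 with 1 sample left out (3 without E12.5, 19 without E15.5, 7 without E16.5, 32 without E18.5). Those that fell numbered 4 under the mitochondrial limit and 6 to 12 with 1 sample left out. Of 2-fold differences in every sample, 59 were higher and 38 lower with libraries as pairs, 178 and 116 under the mitochondrial limit, and 106 to 125 and 62 to 77 with 1 sample left out.

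With libraries as pairs, which are not separate samples, the S and the G2 and M shares passed the threshold for label 0 minus label 4 (-0.204 and -0.105 points) and for label 4 minus label 7 (-0.686 and -2.89). With label 7 added to label 4 they passed at -0.443 and -1.12. With 1 sample left out the first 2 differences ranged from -0.229 to -0.126 and from -0.109 to -0.0805, and those from label 7 to 4 from -0.841 to -0.632 and from -2.98 to -2.83. The differences of depth ranged from -243.8 to -120.4 UMIs, from -123 to -66.4 genes and from 0.178 to 0.354 points of mitochondrial UMIs. With label 7 added, 4 genes reversed: Cdkn2d (-0.392), Tubb4b (-0.861), Rangap1 (-1.02) and Ckap5 (-0.602). With cells of at least 1000 UMIs, the share of label 0 gave r = 0.818 and rho = 0.696, which did not pass. Alternatives with under 6 samples gave no correlation. The cause of these shifts was not tested.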

Other observations

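The E10.5 libraries had too few cells for the comparison. Their 8 cells of label 4 and 15 of label 0 held 15302 and 21639 UMIs. Eomes had 14 UMIs in label 4 (915 CPM, exact Poisson 95% interval 500.2 to 1535) and 15 in label 0 (693 CPM, 388 to 1143), both of which cover counting error only. Neurog2 had 13 UMIs in label 4 and 3 in label 0, and Neurod1 had 2 and 27. Hes5 had 17 UMIs in label 4 and 0 in label 0, where 3 counts would be 139 CPM. Stmn2 had 2 UMIs in label 4 and 106 in label 0 (4899 CPM, 4011 to 5925), which is above the 410.2 to 1336 CPM (median 623) of label 0 from E12.5 on. Neurod6, at 1479 to 3710.2 CPM (median 2959) in label 0 from E12.5 on, had 0 UMIs in either label.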
